A study of Mus musculus with 11 samples.

Results

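Kidneys taken at postnatal day 59 were set against kidneys taken at postnatal day 58, with the Cldn16 genotype as a covariate. The members are the arrays themselves, split by the postnatal day in the sample labels: 4 arrays at day 59 and 7 at day 58, which together are all 11 arrays of the series. Each array carried renal RNA of 1 female mouse, described as juvenile and 8 weeks old, on a mixed Sv129 / C57BL/6N background (129S7/SvEvBrd-Hprtb-m2 crossed to C57BL/6N). The day 59 group held 2 Cldn16 +/+ mice (WT; P59 1 and P59 2), 1 Cldn16 +/- mouse (Het; P59 3) and 1 Cldn16 -/- mouse (KO; P59 4). The day 58 group held 2 WT mice (P58 1 and P58 2), 2 Het mice (P58 3 and P58 4) and 3 KO mice (P58 5, P58 6 and P58 7). No treatment was listed for either group, and all mice ate standard food after weaning. The series was made to compare the genotypes, so the day was not a factor of its design, and litters, birth dates and the hour of dissection were not given in the labels.

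The kidney clears the blood of waste and returns most filtered water, salts, glucose and amino acids to it along the tubule. When a cell runs short of an amino acid, or when unfolded proteins load its endoplasmic reticulum, protein synthesis slows and the transcription factor ATF4 is made. ATF4 then switches on genes for amino acid synthesis, amino acid import and the charging of transfer RNA, among them Asns, which encodes asparagine synthetase. Crosses of inbred mouse strains segregate for stretches of either parental genome, and a bead array probe can read a transcript differently where the strains differ in sequence or expression.

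Replicates were single mice, and the numbers within a group name an array and pair nothing. Deposited array medians ran from 70.3 to 76.6 intensity units, and correlations between arrays over all tested probes lay between 0.981 and 0.991. Slide and day were partly tied: all 4 day 59 arrays lay on slide 1, which held only 2 day 58 arrays (P58 3, Het, and P58 5, KO), and the other 5 day 58 arrays made up slide 2. Mouse numbers ran from 439 to 443 at day 59 and from 449 to 461 at day 58, so the number ranges did not overlap, and litter and day cannot be told apart. Kidney markers were present on every array. Proximal tubule markers had a mean log2 intensity of 11.32 to 11.45 at day 59 and 11.27 to 11.46 at day 58, and thick ascending limb markers 10.89 to 11.10 at day 59 and 10.93 to 11.08 at day 58. Cldn16, the targeted gene and a claudin that forms paracellular pores for calcium and magnesium, was detected (detection p under 0.01) on all arrays, KO arrays included, at 9.60, 9.16, 9.27 and 9.34 at day 59 and between 8.58 and 9.67 (median 9.36) at day 58. Where its probe lies relative to the targeted part of the gene was not settled here, so it checks no label. The day difference of Cldn16 was 0.02 ± 0.15 (log2, SE). All 3 Hprt probes, for a purine salvage enzyme that the 129S7 strain name marks as mutant, were detected on all arrays and differed by 0.08, -0.09 and -0.01.

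Asparagine synthetase, the enzyme that makes asparagine from aspartate and glutamine, was the 1 gene called between the days. It rose 1.91-fold at day 59 on probe ILMN_3006123. Its promoter is shown with that of Chac1, the list member with the largest difference, because both hold the 8-letter motif TGATGNAA, read on either strand, of the sites at which ATF4 and C/EBP factors are known to bind. The windows run from 250 bases before to 50 bases after the transcription start in RefSeq GRCm38.p6, and capitals mark the motif, which reads TTNCATCA where it lies on the other strand.
Asns promoter, chr6:7693160-7693459, minus strand: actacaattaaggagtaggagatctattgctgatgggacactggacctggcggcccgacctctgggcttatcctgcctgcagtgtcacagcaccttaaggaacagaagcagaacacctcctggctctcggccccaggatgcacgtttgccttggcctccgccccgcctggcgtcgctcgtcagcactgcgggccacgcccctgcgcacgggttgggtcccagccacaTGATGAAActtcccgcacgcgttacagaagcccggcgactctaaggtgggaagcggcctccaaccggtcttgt
Chac1 promoter, chr2:119350992-119351291, plus strand: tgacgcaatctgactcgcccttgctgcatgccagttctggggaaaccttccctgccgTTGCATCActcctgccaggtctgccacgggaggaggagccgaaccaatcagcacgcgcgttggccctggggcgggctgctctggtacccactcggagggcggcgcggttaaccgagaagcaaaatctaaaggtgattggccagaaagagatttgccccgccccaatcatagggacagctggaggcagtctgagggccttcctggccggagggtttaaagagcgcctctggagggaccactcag
The motif stood in 1304 of 32851 promoter windows (3.97%). Counted by gene, with any window enough, it stood in 6 of the 16 measured amino acid stress genes that had a window. Beside Asns and Chac1 these were Trib3, Aars, Gars and Vldlr, and the last 3 differed between the days by 0.08, 0.03 and -0.11 (log2). Mthfd2, Sars, Ddit3 and Sesn2, whose differences are given below, had no match. A match is a run of letters and no measured binding site. The list gathers genes of this stress response, and the 2 counts are per window and per gene. They therefore do not bear on the day difference.

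Probe ILMN_3006123 of Asns read 7.66 in P59 1, 7.64 in P59 2, 7.59 in P59 3 and 7.50 in P59 4, against a lowest value of 6.49, a median of 6.63 and a highest value of 6.81 among the 7 day 58 arrays (normalized log2 intensity). The 4 day 59 arrays sat close together and above every day 58 array. The means were 7.60 ± 0.07 (SD, n = 4) at day 59 and 6.65 ± 0.12 (SD, n = 7) at day 58. The difference of 0.94 ± 0.09 (log2, SE; 95% confidence interval 0.74 to 1.14) passed limma with an adjusted p of 0.00544. Of 22856 tested probes it was the only one called, 0.00438% of them.

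The size of the Asns difference held within the slide, but its call did not. With the slide as a block it was 0.97 (limma adjusted p = 0.127), and among the 6 arrays of slide 1 it was 0.96 (limma adjusted p = 0.194). Slide 1 held WT mice at day 59 only, so with genotype in the model they add nothing to that difference. Every slide 1 difference thus rests on P59 3 against P58 3 (Het) and P59 4 against P58 5 (KO). The call also ended without P59 3 (0.88, limma adjusted p = 0.0743) and without the 3 arrays richest in fat markers, P59 4, P58 4 and P58 7 (0.97, limma adjusted p = 0.0823).

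The brighter Asns probe, ILMN_2643513, gave 9.67, 10.08, 9.83 and 9.83 at day 59, against a lowest value of 8.64, a median of 9.07 and a highest value of 9.56 at day 58. All day 59 arrays were again above all day 58 arrays, with P58 2 close behind them. The difference was 0.76 ± 0.16, and it did not pass (limma adjusted p = 0.434). The dimmest probe, ILMN_2636755, was detected on 4 of 4 day 59 arrays and 1 of 7 day 58 arrays and differed by 0.57 ± 0.15 (limma adjusted p = 0.606). The 3 probes thus ran the same way with sizes of 0.57 to 0.94.

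**Figure D1:**
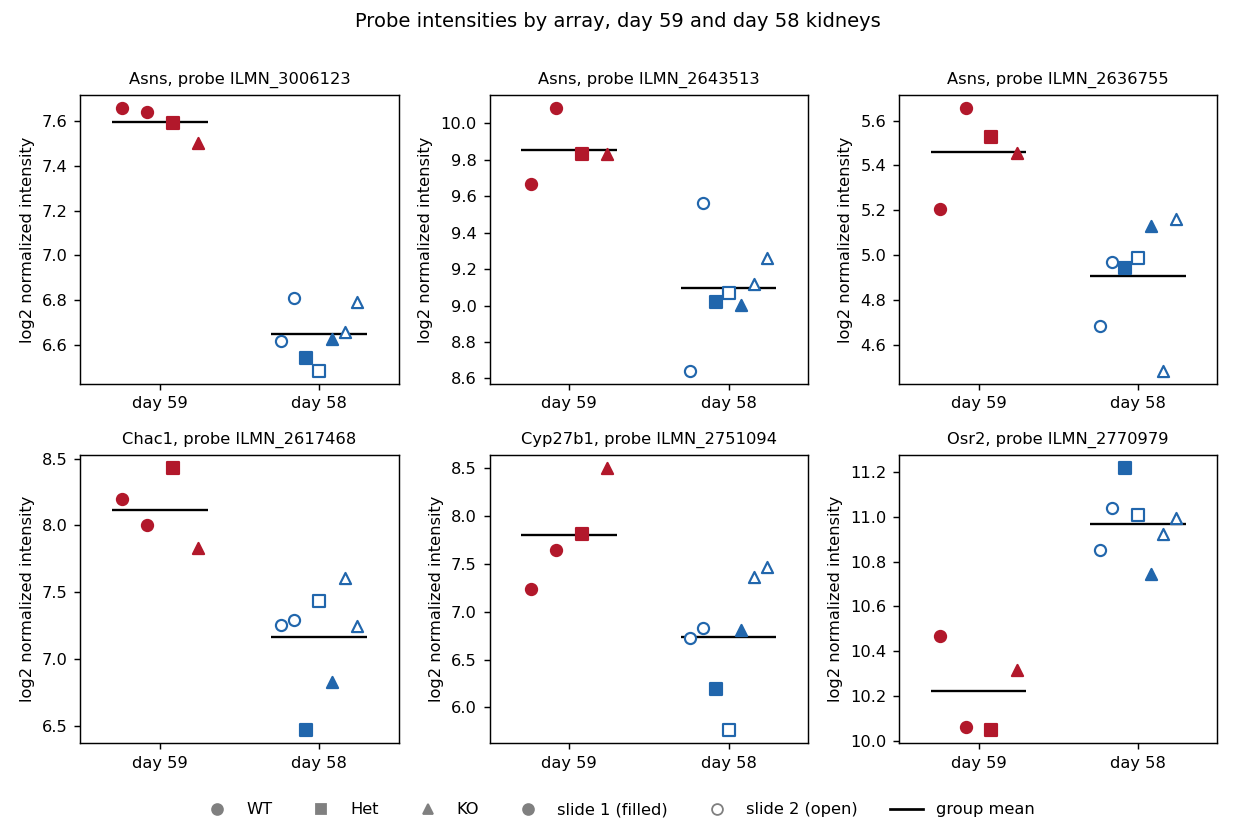
Normalized log2 intensity (vertical axes) of 6 probes on each array, day 59 left (red) and day 58 right (blue). Marker shapes give the genotype, filled markers slide 1 and open markers slide 2, and lines the group means. The day 59 arrays lay between 7.50 and 7.66 on the called Asns probe, above the highest day 58 value of 6.81, and below every day 58 array on the Osr2 probe.

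Of the 20 amino acid stress genes on the list, 17 were measured at 1 probe per gene, the brightest. At these probes 12 were higher and 5 lower at day 59, with a median difference of 0.08 (log2). The median was 0.05 without P59 3, 0.12 without P59 4, and 0.03 with all probes of a gene averaged. Over all 12179 genes the median was 0.0046 and 51.5% were higher. The brightest Asns probe is not the called one, so no gene of the list counts as called at its brightest probe. At an unadjusted p under 0.05, 5 members were higher and 1 was lower, against 2.9% of all genes in each direction.

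Chac1, which degrades glutathione and is a known target of ATF4 and its partner CHOP, had 8.20, 8.00, 8.43 and 7.83 at day 59, against a lowest value of 6.47, a median of 7.26 and a highest value of 7.60 at day 58. The groups did not overlap, and the lowest day 58 arrays were P58 3 and P58 5, both on slide 1. Its difference was 0.94 ± 0.21 (limma adjusted p = 0.441), and 1.48 on slide 1 alone (limma adjusted p = 0.159). Mthfd2, a mitochondrial enzyme of folate metabolism, differed by 0.41 ± 0.16 with overlapping groups, from 8.56 to 9.15 at day 59 and from 8.07 to 8.83 at day 58. Sars, which charges transfer RNA with serine, read 8.81 to 9.15 at day 59 and 8.59 to 8.81 at day 58 and differed by 0.26 ± 0.10. Among the other members, differences were 0.44 ± 0.20 for Trib3, a pseudokinase that dampens the response, and 0.24 ± 0.10 for Ddit3, which encodes CHOP. Sesn2, a stress-induced regulator of growth signalling, ran the other way at -0.44 ± 0.19, with 6.82 in P59 3 and 8.09 in P59 1. Atf4 itself differed by 0.11 ± 0.10. None of these passed the adjustment over all probes. The members that charge other transfer RNAs, Aars, Gars and Nars, differed by 0.08, 0.03 and -0.02.

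**Figure D2:**
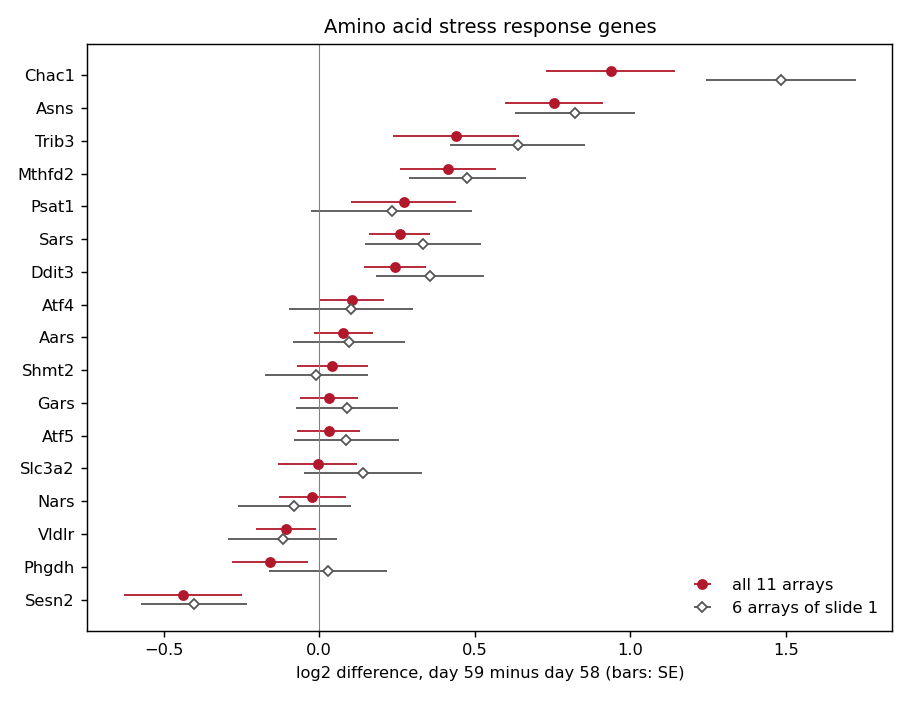
Log2 difference, day 59 minus day 58 (horizontal axis), of the 17 measured amino acid stress genes at their brightest probe, with standard errors. Red circles use all 11 arrays and open diamonds the 6 arrays of slide 1, where only the Het and KO arrays bear on the difference. Chac1 and Asns lie farthest right, at 0.94 and 0.76 with all arrays, and Sesn2 farthest left at -0.44.

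Across the array the day left few probes apart. At an unadjusted p under 0.001, 43 probes stood out (0.188%), where 22.9 would be the average with no difference anywhere. All 4 day 59 arrays exceeded all 7 day 58 arrays at 101 probes (0.442%) and lay below all of them at 69 (0.302%). Some probes separate in this way with no day difference, and how many was not worked out. At probes named for a small p, a lack of overlap is a description and no further test. An unadjusted p under 0.05 was reached by 1441 probes (6.3%).

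**Figure D3:**
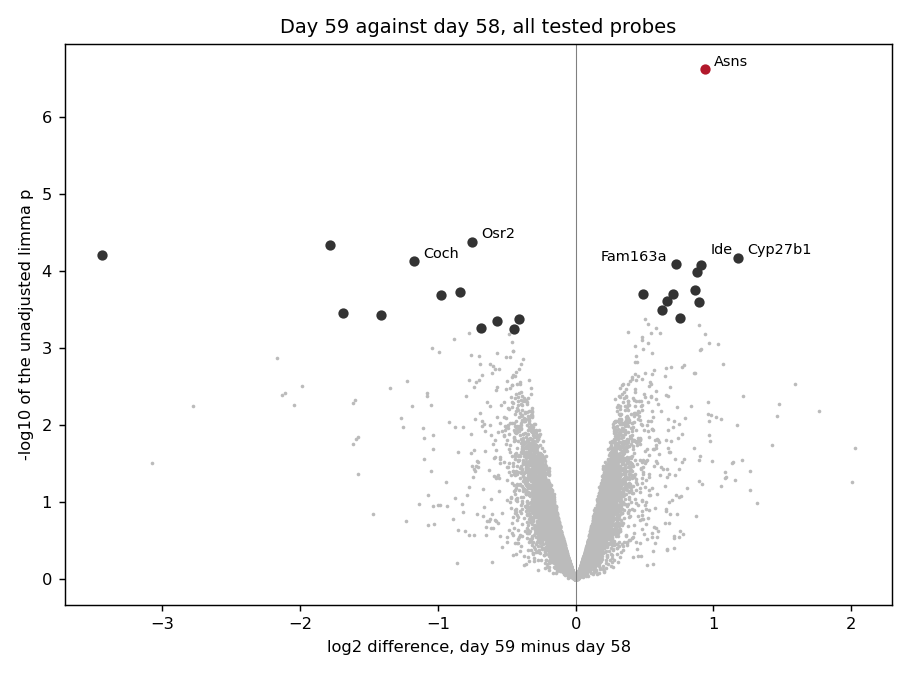
Each point is 1 of 22856 probes, with the log2 difference, day 59 minus day 58, on the horizontal axis and -log10 of the unadjusted limma p on the vertical axis. The called Asns probe is red, and the other 11 higher and 12 lower probes of smallest p are black. Asns stands alone at the top, and the points farthest left reach beyond -3.

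The following probes are those of smallest p after Asns among the higher ones, and none passed. Cyp27b1, the kidney enzyme that makes the active form of vitamin D, had 7.24, 7.64, 7.81 and 8.50 at day 59, against a lowest value of 5.76, a median of 6.80 and a highest value of 7.47 at day 58. P59 1 lay below the 2 highest day 58 arrays, both KO, so the groups overlapped. The difference was 1.18 ± 0.20 (limma adjusted p = 0.232). It came to 1.66 on slide 1 alone, where it was called (limma adjusted p = 0.0309), and 1.44 with the slide as a block (0.494).

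Fam163a, a gene whose role in the kidney is not described here, had 6.02, 6.45, 6.23 and 5.79 at day 59, against 5.17 to 5.55 (median 5.34) at day 58, without overlap. Its difference was 0.73 ± 0.13 (limma adjusted p = 0.232). Ide encodes the insulin-degrading enzyme, and its probe ILMN_1238102 had 6.61, 6.47, 7.06 and 6.33 at day 59, against 5.32 to 6.21 (median 5.77) at day 58. The groups did not overlap there, but the other 2 Ide probes, which are brighter, differed by 0.04 each, so the 3 probes of Ide disagreed. Its difference was 0.91 ± 0.16 (limma adjusted p = 0.232).

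Complement factor I, the plasma protease encoded by Cfi, had 8.54, 8.91, 8.79 and 8.88 at day 59, against 7.84 to 8.56 (median 8.10) at day 58. P59 1 and P58 4 overlapped narrowly, and the difference was 0.66 ± 0.13. BC004004 differed by 0.49 ± 0.09, from 7.15 to 7.59 at day 59 and from 6.78 to 7.22 at day 58. Adamts4, a protease of the matrix proteoglycan aggrecan, and Batf3, a transcription factor of dendritic cells, were dim: each was detected on 4 of 4 day 59 arrays and on 1 of 7 day 58 arrays. Their differences were 0.87 ± 0.16 and 0.71 ± 0.14, and the second Batf3 probe was above background on no array. Of 3 unnamed probes among them, ILMN_2512738 was above background on 3 day 59 arrays and on no day 58 array, and it was at least 1.32-fold higher at day 59. This bound sets the mean of the brighter group against the array's lowest intensity above background. ILMN_2612346 and ILMN_1250188 were above background on 3 day 59 arrays each, against 1 day 58 array for the first and none for the second, and the first differed by 0.90 ± 0.18.

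Among the lower probes none passed either. Osr2, a zinc finger transcription factor of kidney and limb development, had 10.47, 10.06, 10.05 and 10.32 at day 59, against a lowest value of 10.75, a median of 10.997 and a highest value of 11.22 at day 58. The groups did not overlap. The difference was -0.75 ± 0.12 (limma adjusted p = 0.232), and the second Osr2 probe gave -0.35 ± 0.12. With the slide as a block the first probe gave -0.77 and on slide 1 alone -0.80.

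Coch, a secreted protein first known from the inner ear, had 4.89, 4.63, 5.44 and 5.23 at day 59, against a lowest value of 5.18, a median of 6.47 and a highest value of 6.85 at day 58. P58 1 was the 1 day 58 array in the day 59 range. Its difference was -1.17 ± 0.20 (limma adjusted p = 0.232). It was called on slide 1 alone (-1.46, limma adjusted p = 0.0388) and without P58 1 (-1.39, limma adjusted p = 0.0166). As P58 1 was the array out of line, the call without it is no further test.

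Fzd6, a Wnt receptor, read 7.29 to 7.86 at day 59 and 7.92 to 8.83 at day 58 and differed by -0.84 ± 0.16, while its second probe gave -0.16. Lrp6, a co-receptor of the same pathway, read 6.23 to 6.33 at day 59 and 6.54 to 6.78 at day 58, a difference of -0.41 ± 0.09, and its second probe gave -0.29 ± 0.10. Both groups were tight on the first Lrp6 probe and did not overlap. Sema5a, an axon guidance protein, had 8.82 in P59 1 but 7.68, 7.69 and 7.84 in the other day 59 arrays, against 8.85 to 9.08 (median 8.98) at day 58. P59 1 thus stood with the day 58 arrays, and the difference was -0.98 ± 0.19. A second Sema5a probe ran the same way (-1.05 ± 0.24). Without P59 1 the difference on the first probe was -1.22 and was called (limma adjusted p = 7.8e-04). That call is no further test, because P59 1 was the array out of line.

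At 4 lower probes every day 59 array was low, and so was P58 7, while the other 6 day 58 arrays were high. The unnamed probe ILMN_2455192 had 4.76, 4.39, 4.45 and 4.65 at day 59, against a lowest value of 4.79 (P58 7), a median of 8.31 and a highest value of 8.58 at day 58. It was above background on no day 59 array and on 6 day 58 arrays, and was at least 6.78-fold lower at day 59 (limma adjusted p = 0.232). ILMN_2542048 behaved alike and was at least 2.07-fold lower at day 59. Taf6, a subunit of the general transcription factor TFIID, read 5.32 to 5.75 at day 59, against 5.29 in P58 7 and 7.14 to 7.62 in the other day 58 arrays. Its second probe differed by 0.11, so the 2 Taf6 probes disagreed. ILMN_2449449 differed by -1.41 ± 0.29. Without P58 7 all 4 probes were called, with limma adjusted p-values of 3.6e-08 (ILMN_2455192), 1.7e-06 (ILMN_2542048), 2.0e-06 (Taf6) and 1.3e-04 (ILMN_2449449). Leaving out the 1 array that broke the split makes such small p-values certain, so these calls are no further test of the day.

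The last 3 lower probes were dim. ILMN_2526840 differed by -0.57 ± 0.12. Gm4836 was above background on no day 59 array and on 1 day 58 array. Zfp296, a zinc finger protein, was above background on no day 59 array and on 4 day 58 arrays and was at least 1.13-fold lower at day 59.

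Xist, the RNA that coats the inactive X chromosome of female cells, was detected on all arrays by its 4 probes. Probe ILMN_1224091 read 9.98 to 10.16 at day 59 and 10.29 to 10.73 at day 58, without overlap. It differed by -0.46 ± 0.10 (limma adjusted p = 0.481), and by -0.24 with the slide as a block. The other 3 probes gave -0.47, -0.40 and 0.05.

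Gene groups of the kidney were next described by their counts and medians. Of 40 lists, 34 had 5 or more measured genes, and their median differences ran from -0.14 to 0.34. No list had a called member. The lists were chosen with earlier results of these data known.

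Cholesterol synthesis genes leaned up: 11 of 13 were higher at day 59, with a median of 0.19. Of the higher ones, 3 reached an unadjusted p under 0.05, against 2.9% of all genes in that direction. Sqle, squalene epoxidase, had 11.05, 11.44, 11.62 and 11.39 at day 59, against a lowest value of 10.25, a median of 10.84 and a highest value of 11.17 at day 58. Its groups overlapped through P59 1, and it differed by 0.58 ± 0.16 (limma adjusted p = 0.656). A second, dimmer Sqle probe read 8.84 to 9.75 at day 59 and 7.65 to 8.58 at day 58, without overlap, and differed by 0.90 ± 0.21 (limma adjusted p = 0.515). Mvd, which makes isopentenyl diphosphate, read 8.98 to 9.22 at day 59 and 8.54 to 8.91 at day 58 without overlap, a difference of 0.35 ± 0.10. Mvk, mevalonate kinase, differed by 0.41 ± 0.13, and Fdps, farnesyl diphosphate synthase, by 0.27 ± 0.13. The list's mean level was 8.50 to 8.72 at day 59 and 8.28 to 8.49 at day 58, without overlap. On slide 1 alone all 13 members were higher, with a median of 0.28, and without P59 4 the median was 0.10.

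Extracellular matrix genes were higher at day 59 in 20 of 22 cases, with a median of 0.13. The slide as a block and slide 1 alone both gave 0.30, and with 1 array left out it ran from 0.03 (without P59 3) to 0.23 (without P59 4). Col6a2, a collagen VI chain, differed by 0.36 ± 0.16 at its brighter probe and -0.05 at its dimmer one, and Eln, elastin, differed by 0.20 ± 0.13. Tnc, tenascin C, was lower at -0.25 ± 0.22. Mean levels overlapped, at 8.28 to 8.61 at day 59 and 8.00 to 8.58 at day 58.

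Blood markers gave the highest list median, 0.34, with 6 of 7 genes higher at day 59. Of the higher ones, 2 reached an unadjusted p under 0.05, against 2.9% of all genes in that direction. Alas2, the red cell enzyme that starts haem synthesis, had 8.02, 7.10, 7.35 and 7.43 at day 59, against a lowest value of 5.89, a median of 6.35 and a highest value of 7.26 at day 58. P59 2 lay within the day 58 range, and the difference was 0.96 ± 0.28. Haemoglobin alpha, Hba-a1, read 13.84 to 14.23 at day 59 and 12.14 to 13.96 at day 58, a difference of 0.72 ± 0.32. A slide block gave a list median of 0.63, slide 1 alone 0.67 and leaving out P59 3 0.58. The mean level of the list was 8.32 to 8.81 at day 59 and 7.50 to 8.54 at day 58. Its part in the Asns difference was not tested. In whole tissue, more cells of a type and more RNA per cell cannot be told apart.

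Of the other tissues a dissection can bring along, adipose markers were higher in 8 of 13 cases (median 0.07), with mean levels of 7.15 to 8.80 at day 59 and 7.36 to 8.78 at day 58. Muscle markers were higher in 6 of 9 cases (median 0.05), with Myh1, a fast muscle myosin, at 0.59 ± 0.21. On slide 1 alone the medians were larger, 0.48 for adipose and 0.26 for muscle. Of the 3 arrays richest in fat markers, slide 1 held P59 4, and both of the others were day 58 arrays of slide 2. With 1 array left out, the adipose median ran from -0.20 (without P59 4) to 0.44 (without P59 3) and the muscle median from -0.06 (without P58 3) to 0.14 (without P58 4). The 3 adrenal genes measured were lower (median -0.19), at levels of 4.76 to 5.06 at day 59 and 4.85 to 5.39 at day 58, near background. Of the lymphocyte markers, Cd79b, a B cell receptor chain, read 4.80 to 5.34 at day 59 and 5.32 to 5.82 at day 58, a difference of -0.45 ± 0.11 (limma adjusted p = 0.515). A second Cd79b probe gave 0.14 ± 0.17. T lymphocyte markers had a median of 0.08.

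Lists of nephron and vessel cells had medians near that of all genes or below it. Proximal tubule genes had a median of 0.02, thick ascending limb genes 0.02 and distal convoluted tubule genes 0.04. Medians were lower for intercalated cells (-0.11, 2 of 13 higher), podocytes (-0.12, 2 of 8 higher), endothelium (-0.10, 4 of 12 higher) and macrophages (-0.14, 2 of 11 higher), though with a median shift per array, which raised the median of all probes to 0.12, those of podocytes and endothelium were 0.07 and 0.04. For intercalated cells a slide block gave -0.22 and slide 1 alone -0.25, where 0 of 13 were higher, and leaving out P59 3 gave -0.06. Slc22a12, the proximal urate transporter, differed by 0.44 ± 0.16, and Foxq1, a transcription factor on the thick ascending limb list, by -0.52 ± 0.21. Flt1, a VEGF receptor of endothelium, differed by -0.24 ± 0.11, and Aqp2, the vasopressin-regulated water channel, by -0.43 ± 0.24. Water and osmolyte genes were lower in 12 of 16 cases (median -0.08, and 0.08 with the median shift).

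The circadian clock list had 7 of 14 genes higher and a median of -0.01 (0.19 with the median shift, where all probes had 0.12), and its members split. Arntl, the activator that pairs with CLOCK, differed by 0.53 ± 0.24, while Per3 (-0.63 ± 0.27), Nr1d2 (-0.35 ± 0.13) and Dbp (-0.26 ± 0.14), which are expressed in the opposite phase to Arntl in mouse tissues, were lower. Nr1d2 read 10.05 to 10.62 at day 59 and 10.30 to 10.88 at day 58, with overlap through P59 3. None of the 4 passed (limma adjusted p = 0.757 to 0.826). Of the other clock genes, Nr1d1 differed by 0.10, Per2 by -0.04 and Ciart by 0.03. The hour of dissection was not given in the labels, so its part cannot be told apart from the day.

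In further lists no member passed either. In the interferon list, Psmb8, an immunoproteasome subunit, differed by -0.43 ± 0.13, and by -0.14 ± 0.13 at a second probe. Igtp and Gbp2, both interferon-induced GTPases, differed by -0.28 ± 0.10 and -0.37 ± 0.14. The list median was -0.06 (0.05 with the median shift). Hmox1, haem oxygenase, differed by 0.39 ± 0.16 and Gclc, which starts glutathione synthesis, by 0.34 ± 0.12, in an oxidative stress list whose median was -0.003 (0.19 with the median shift). The median of all probes was itself 0.12 with that shift. Among sex-biased kidney genes Cyp7b1, an oxysterol hydroxylase, had 8.02, 9.10, 8.46 and 9.92 at day 59, against 7.65 to 8.64 (median 7.84) at day 58, with overlap and a difference of 0.96 ± 0.30. Acaa1b, a peroxisomal thiolase, differed by -0.39 ± 0.14, and Ppargc1a, a regulator of mitochondrial genes, by -0.35 ± 0.15.

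**Figure D4:**
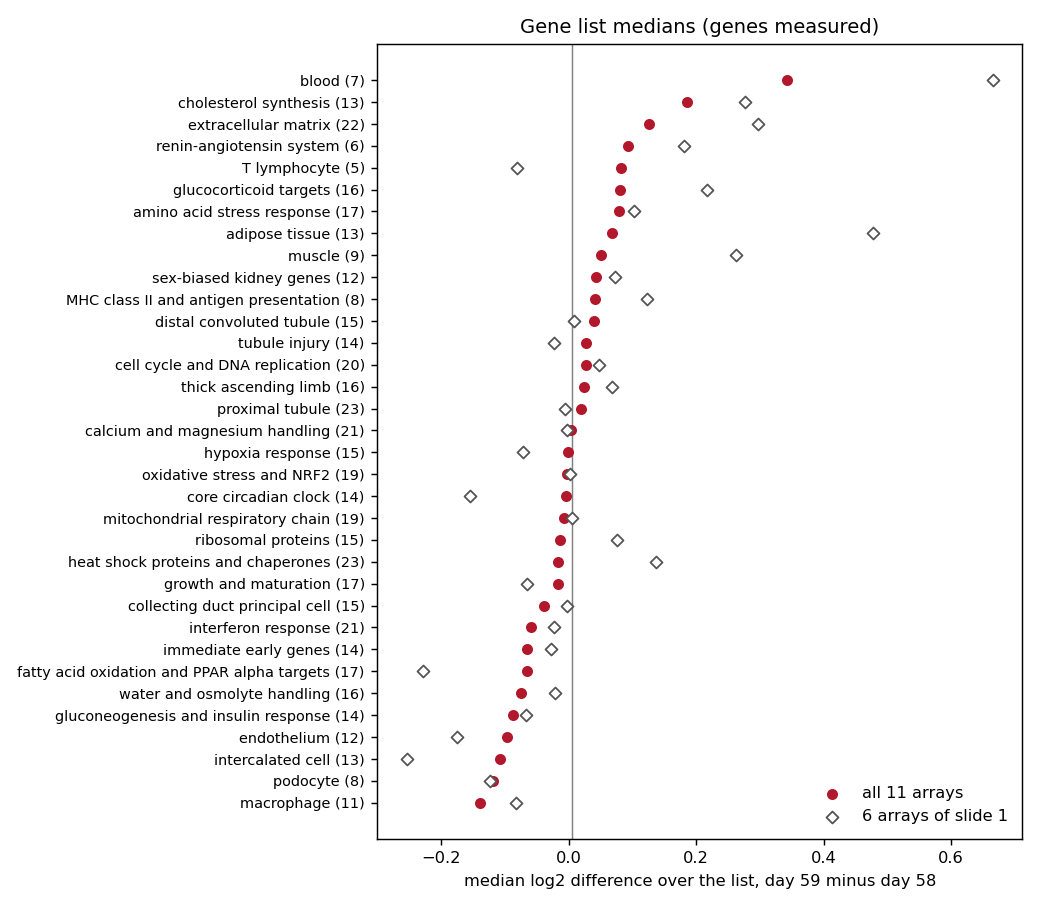
Median log2 difference, day 59 minus day 58 (horizontal axis), of the 34 gene lists with 5 or more measured genes, whose number stands in brackets. Red circles use all 11 arrays, open diamonds slide 1 alone (differences from its Het and KO arrays), and the grey line is the median of all genes. With all arrays blood is highest at 0.34 and macrophage lowest at -0.14.

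Most of the largest differences came with overlapping groups. Of 40 probes lower by more than 1 on the log2 scale at day 59, 2 had every day 59 array below every day 58 array (ILMN_2455192 and ILMN_2542048). At both, P58 7 was low as well and lay just above the highest day 59 array (4.79 against 4.76, and 4.65 against 4.50). Of 25 higher by more than 1, 1 had every day 59 array above every day 58 array (Sec14l3). Of the same 40 lower probes, 21 lay on 2 separate levels, with a gap of at least 1.5 between a low and a high set of 3 or more arrays each. This rule was set after values were seen, and 48 of all 22856 probes met it (0.21%). Of the 25 higher probes, 3 met it.

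Of 40 such probes placed on a chromosome by the gene table of GRCm38.p6, 25 shared their split of the arrays with another probe of that chromosome and 15 had a split of their own. Among those 15 were Cops8 and Ugt1a10 on chromosome 1, Ceacam2 on chromosome 7 and Prss35 and Me1 on chromosome 9. On chromosome 1, 7 probes of Apoa2, Fcer1g, Fmo1, Gin1 and Mcm6 were low in P59 1, P59 3, P59 4, P58 3 and P58 4 and high in the other 6 arrays. Mcm6, a subunit of the replicative helicase, read 4.31, 9.05, 4.36 and 4.36 at day 59, against 4.26 to 9.92 (median 9.09) at day 58 on its probe ILMN_1217331, a difference of -2.78 ± 0.83 (limma adjusted p = 0.656). It was thus low in 3 of 4 day 59 arrays and 2 of 7 day 58 arrays. Apoa2, an apolipoprotein, and Fcer1g, an Fc receptor chain, were at background in the same 5 arrays.

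On chromosome 15, 5 probes of Gramd4, Higd1c, Methig1 and Pou6f1 were low in P59 2, P59 3, P59 4 and P58 7. Methig1 read 7.07, 4.77, 4.79 and 4.61 at day 59, against a lowest value of 5.02 (P58 7), a median of 7.61 and a highest value of 7.93 at day 58, a difference of -2.17 ± 0.53. Osr2, Fzd6 and Sema5a lie on this chromosome too but parted from that split at P58 7. On their probes of smallest p, P58 7 read 10.997, 8.39 and 8.89, within the range of the other day 58 arrays. Among the day 59 arrays Sema5a followed the split, with 8.82 in P59 1 and 7.68, 7.69 and 7.84 in the others. Mtdh on this chromosome did so too (7.98 against 6.15, 6.34 and 6.20), with P58 7 at 7.72. Osr2 and Fzd6 were also highest in P59 1 among the day 59 arrays, at 10.47 and 7.86. At an unadjusted p under 0.01 stood 28 of the 784 tested probes on chromosome 15, or 3.57%, and 28 of 1058 on chromosome 1, or 2.65%. The share was 1.33% of all probes with a chromosome, 0.64% on chromosome 9 and 1.27% on chromosome 7. Probes of the same gene, such as those of Mcm6, were counted apart.

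On chromosome 9, 6 probes of Atp2c1, Epm2aip1, Pik3r4, Rpl29, Spink8 and Wdr82 were low in all 4 day 59 arrays and in P58 1, P58 2, P58 4 and P58 7, and high only in P58 3, P58 5 and P58 6. Spink8, a serine protease inhibitor, read 6.73 to 7.06 at day 59, against 11.20, 10.79 and 10.69 in those 3 day 58 arrays and 6.12 to 7.43 in the other 4. Me1, the cytosolic malic enzyme, followed the same arrays except that P58 1 was also high: it had 4.59 to 4.86 at day 59, and 9.84 to 10.38 in 4 and 4.58 to 5.18 in 3 day 58 arrays. On chromosome 7, Ctsc, Folh1 and Trim30a were low in P59 4, P58 2, P58 4 and P58 7, a split unrelated to the day. Whether sequence or expression of the parental strains underlies these levels was not tested.

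**Figure D5:**
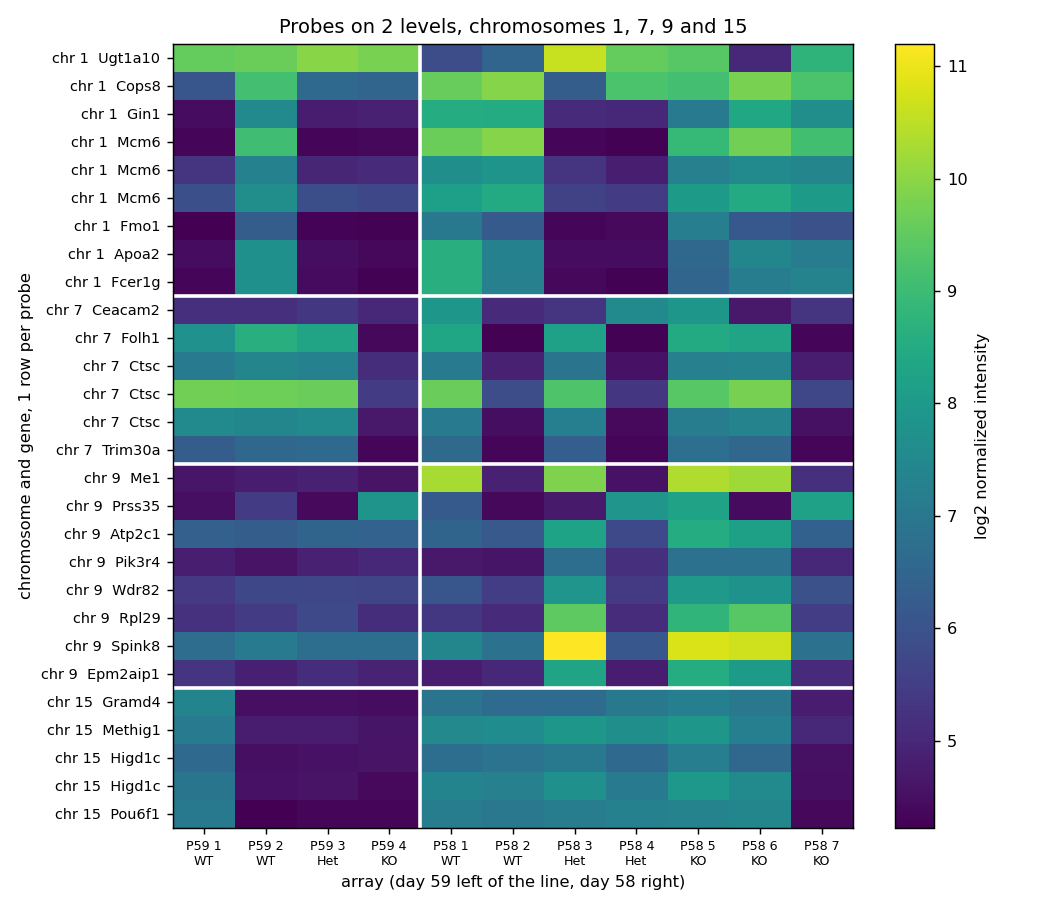
Normalized log2 intensity (colour) of the probes on 2 levels on chromosomes 1, 7, 9 and 15, 1 row per probe in gene order along each chromosome. Columns are arrays, the 4 day 59 arrays left of the white line and the 7 day 58 arrays right of it. Blocks of rows on 1 chromosome share their dark arrays, such as P59 2, P59 3, P59 4 and P58 7 on chromosome 15.

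Within slide 1 alone 24 probes (0.105%) were called, 8 higher and 16 lower at day 59. Of them 10 were probes on 2 levels and 9 lay on chromosome 9, all 9 lower, among them Spink8 (-4.25) and Rpl29 (-3.68). Both day 58 arrays of that slide, P58 3 and P58 5, belong to the high set of the chromosome 9 probes. As the WT mice of that slide were all at day 59, these differences rest on 1 Het and 1 KO array of each day. Of the 8 higher probes 7 were unnamed, and Cyp27b1 was the other. With the slide as a block 1 probe was called (0.00438%), Lars2, a mitochondrial leucine transfer RNA synthetase on chromosome 9, at -2.65 (limma adjusted p = 4.8e-04). It differed by -0.65 ± 0.56 without the block. It read 6.11 to 6.46 at day 59, against 8.82 in P58 3, much the same in P58 5, and 5.82 to 6.53 in the other 5 day 58 arrays.

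Whether the day difference was itself different between KO and WT kidneys was tested as an interaction, which rests on P59 4 as the only KO array at day 59. An effect of day by genotype and 1 unusual array therefore cannot be told apart. Of all tested probes, 1 was called (0.00438%), Gpr137b-ps, a pseudogene on chromosome 13. It read 5.99 in P59 4, against 9.98 to 10.22 in the 3 day 58 KO arrays, and 10.25 and 10.97 in day 59 WT arrays, against 10.65 and 10.19 in day 58 WT arrays. The day effect in KO minus that in WT was -4.28 ± 0.42 on the log2 scale (limma adjusted p = 0.0237). Asns gave no such call (limma interaction adjusted p = 0.998). The call ended with the slide as a block, without background correction, on the authors' processed values, with all probes tested and without P59 2, P58 1, P58 2, P58 5, P58 6 or P58 7, and it cannot be made without P59 4.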

How the data were processed

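Renal RNA of 11 mice was measured on Illumina mouse bead arrays. The deposited intensities are unnormalized probe summaries made by the authors, with BeadStudio per the submitters' processing notes, and each has a deposited detection p-value per the file headers. The authors' processed table of the same arrays served as an alternative, and it differed from quantile-normalized raw values by a median of 0.00392 (log2). Array number limits the precision.

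With limma 3.58.1 in R 4.3.3, intensities were background-corrected (normexp, offset 16, negative controls inferred from the detection p-values), normalized between arrays by quantiles and log2-transformed. Of 45281 probes, the 22856 with p under 0.05 in 3 or more arrays were tested. lmFit and eBayes fitted day and genotype, with Benjamini-Hochberg adjustment over all tested probes and a call at an adjusted p under 0.05. The interaction used a mean per day and genotype. This filter is looser than the rule used in the text, where a probe is called detected, or above background, on an array at a detection p under 0.01, so a tested probe can be called so on no array. Lists used the brightest probe of each gene and were described without a test. Named are the called probes (up to 15 of largest difference in each direction), the 12 probes of smallest p in each direction, other probes of the same genes, Cldn16, Hprt, Xist and up to 4 members of smallest p in each list. Other members and genes were named after their values were seen. Members and lists were chosen with earlier results of these data known.

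Platform annotation gave 1 symbol for 34885 probes, several for 18 and none for 10378. Chromosomes and promoters came from RefSeq tables of GRCm38.p6. Whether p-values reflect more than the spread between these single mice was not tested. The code was tested on simulated data. Alternatives were the slide as fixed or random block, slide 1 alone, no genotype term, other background corrections, normalizations and filters, array weights, the authors' values, leaving out the 3 arrays richest in fat markers, and leaving out each array.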

Additional observations from a re-analysis of the deposited data

Results flagged for a closer look

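Of 56 groups of arrays checked for a lone extreme array, 10 exceeded Dixon's 95% critical value for their size. Chance gives about 1 in 20 for unpicked, separate groups of like arrays. Here the flagged probes, save Xist, were picked by small p, the groups mix genotypes, and the P58 7 flags share a pattern. That rate is therefore no measure of these counts. The gap of the extreme array is given as a share of its group's range. P58 7 was far below the other day 58 arrays at ILMN_2455192 (0.909, level 4.79), ILMN_2542048 (0.853, level 4.65), Taf6 (0.793, level 5.29) and ILMN_2449449 (0.767, level 6.94), in each case near the day 59 arrays. P58 1 was lowest of its group at Coch (0.593, level 5.18) and Adamts4 (0.581, level 4.39). P58 2 was highest at ILMN_1250188 (0.817, level 4.86) and ILMN_2612346 (0.816, level 5.36), both dim. P58 3 was lowest at the Xist probe ILMN_2475156 (0.818, level 10.35), within the day 59 range. At day 59, P59 1 was highest at Sema5a (0.858, level 8.82), just under the lowest day 58 array.

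The day effect in KO kidneys minus that in WT kidneys was -4.28 at Gpr137b-ps (limma adjusted p = 0.0237). It rests on P59 4, the only KO array at day 59, which was low (5.99) where every other array was at 9.98 or higher, so an effect of day by genotype and 1 unusual array cannot be told apart.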

How the results depend on the processing

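With day as the contrast, 1 probe was called, and 24 were called on slide 1 alone, 4 without the 3 arrays richest in fat markers and 2 with a median shift per array, which moved the median of all probes to 0.12. Leaving out 1 array at a time gave 0 (without P59 3) to 5 calls (without P58 7). Without P59 3, limma left 1391 probes at an unadjusted p under 0.05. Without P59 1 there were 4 calls and without P58 1 there were 2. The slide as a block gave 1 call, but Lars2 and not Asns. The Asns difference ran from 0.88 to 0.99 over the arrays left out, and its limma adjusted p lay above 0.05 in the 4 settings named beside it. The interaction had 1 call and 0 with the slide as a block (956 probes at an unadjusted limma p under 0.05), without background correction (887), with all probes tested (2191) and on the table the authors processed (888). Leaving out 1 array gave 0 to 2 calls (2 without P59 1), and without P59 4 it could not be estimated. It was not run under the other settings. Near 0, Hprt (ILMN_2704499) turned to 0.12 with the median shift. Cldn16 turned to -0.016 with array weights and -0.19 without the 3 arrays richest in fat markers, and ran from -0.18 to 0.14 over the arrays left out. The causes were not tested. No paired analysis was possible because the labels give the groups no shared replicate numbers. Day cannot be told apart from litter, and slide 1 alone leaves 2 residual degrees of freedom. Signals near background limit the dim probes.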
